A study of Homo sapiens with 9 samples.

Results

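The Scramble libraries of the series hold the transcriptome of A549 cells, a human lung adenocarcinoma line of epithelial origin, after transfection with a scramble small interfering RNA (siRNA) that targets no gene of interest. They were chosen by their labels, as 3 of 9 libraries (replicates 1, 2 and 3), and all 18143 listed genes were described without a contrast to the other libraries. The study asked what REV1, a translesion DNA polymerase, does in lung cancer cells, and its other groups received SiREV1#1 or SiREV1#2. The cells were grown in DMEM with serum, carried no labelled genetic change and were harvested 48 h after transfection with a lipid reagent, so the levels below are those of transfected and not of untouched cells. Levels are given as FPKM, the fragments of a gene scaled for transcript length and for the total of the library, and 3 values in a row are replicates 1, 2 and 3 in that order. A gene was called detected at 1 FPKM or more in all 3 libraries. Total estimated counts were 18382314, 19996790 and 20035170, and a gene at 1 FPKM had a median of 55, 60.1 and 66.1 counts. A count of 0 allows up to 0.163, 0.150 and 0.150 CPM (3 counts, scaled to the total of the library), which covers counting error only. Nothing in the labels says that the replicates came from separate cultures, so their spread may be technical.

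A549 cells are widely used as a model of the alveolar epithelium and of lung adenocarcinoma. The line is known to carry inactivated KEAP1, STK11 and SMARCA4 and a deletion of the CDKN2A locus. KEAP1 is the adaptor that marks the transcription factor NRF2 (NFE2L2) for destruction, and cells without working KEAP1 keep antioxidant and drug-metabolizing genes on.

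Of the 6 marker genes given for the line, 5 were abundant and 1 was close to the threshold of 1 FPKM. KRT8 and KRT18, the keratin pair of simple epithelia, were at 4848, 2345 and 2184 FPKM and 4456, 3663 and 3468 FPKM. The NRF2 targets NQO1, AKR1B10 and AKR1C1, which reduce quinones, aldehydes and steroids, were at 719, 366 and 367 FPKM, 3108, 954 and 985 FPKM and 2032, 839.8 and 817 FPKM. EPCAM, the epithelial cell adhesion molecule, was at only 1.56, 0.73 and 0.79 FPKM, and it stayed between 1.05 and 2.38 FPKM in the other 6 libraries of the series. The keratins and the NRF2 targets thus fitted the label of the cells, while EPCAM went against it. Bulk RNA cannot tell fewer cells with a transcript from less RNA per cell.

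Replicate 1 stood apart from replicates 2 and 3, and the level of each gene is therefore given for each library. A single median of a gene group is that of the mean levels of its members over the 3 libraries. Several genes read in the siRNA groups split by replicate number in the same way (values below). Over 11418 genes with a mean of at least 1 FPKM, the Pearson correlation of log2(FPKM + 0.1), across genes, was 0.995 between replicates 2 and 3, and 0.893 and 0.886 between replicate 1 and each of them. The median coefficient of variation (CV, the SD over the mean) was 21.1% over the 3 libraries and 5.23% over replicates 2 and 3. The edgeR biological CV, which removes counting noise, was 0.354 over all 3 libraries and 0.0610 without replicate 1, so replicates 2 and 3 differed by more than sampling noise. Without replicate 2 or 3 it was 0.429 or 0.419. Among the same genes, replicate 1 lay above both other libraries for 4953 (43.4%) and below both for 5600 (49.0%). It lay more than 2-fold above both for 1017 genes (8.91%) and more than 2-fold below both for 1304 (11.4%). These shares are the background for each gene group below. Transcript length moved with the shift. Over 6190 genes with a mean of at least 10 FPKM, the median ratio of replicate 1 to the mean of the other libraries was 0.985 in the 1238 shortest genes and 0.836 in the 1238 longest genes, and its part in the shift was not tested.

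**Figure D1:**
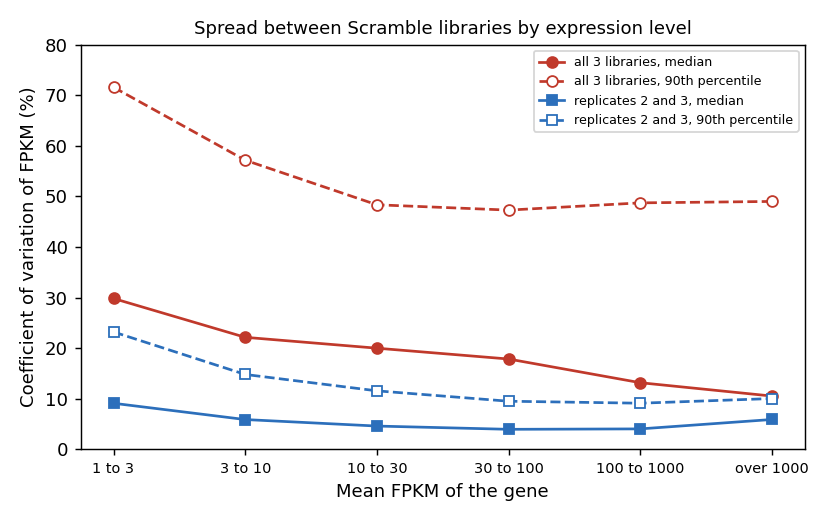
The plot shows the coefficient of variation of FPKM (%, vertical axis) for genes of at least 1 FPKM grouped by mean FPKM (horizontal axis), as the median and 90th percentile of each group, over all 3 libraries (red circles) and over replicates 2 and 3 (blue squares). The median over 3 libraries is 29.8% at 1 to 3 FPKM and 10.6% above 1000 FPKM, and the median over replicates 2 and 3 stays below 10% in each group shown.

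Of the 18143 listed genes, 10818 (59.6%) were detected, 1076 reached 1 FPKM in some libraries and 6249 (34.4%) stayed below 1 FPKM in all 3. The 59.6% is the background for the share detected in each gene group below. There were 5193 genes at 10 FPKM or more in every library, 567 at 100 or more and 50 at 1000 or more. Replicate 1 accounted for most of the inconsistent calls, with 515 genes at 1 FPKM or more in replicate 1 alone and 48 and 57 in replicate 2 or 3 alone, and 313 genes below 1 FPKM in replicate 1 alone. A count of 0 in all 3 libraries was found for 685 genes (3.78%). Since 18123 of the listed genes had a value above 0 in at least 1 of the 9 libraries, the listing favours genes seen in this series, and these shares are not shares of all human genes.

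Ferritin led the transcriptome. FTL, the ferritin light chain that stores iron, was at 20938, 10132 and 9729 FPKM and FTH1, the heavy chain with ferroxidase activity, was at 6544, 4668 and 4593 FPKM. FTL alone held 4.04%, 2.02% and 2.02% of all FPKM. Its level in replicate 1 was 2.11 times the mean of the other libraries. The next group was the cytoskeleton and glycolysis: GAPDH, the glycolytic dehydrogenase, was at 7392, 5369 and 4937 FPKM, ACTB (β-actin) at 2771, 2855 and 2701 FPKM, and the keratins KRT18 and KRT8 stood at ranks 6 and 10. ALDH1A1, a retinaldehyde dehydrogenase used as a stem cell marker, was at 3083, 2338 and 2453 FPKM and at rank 13. ANXA2, a calcium-dependent membrane-binding protein, was at 2407, 2262 and 2177 FPKM.

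Translation made up much of the rest of the top 20. It held 8 ribosomal protein genes, RPLP1, RPS2, RPL41, RPL13A, RPS19 and RPLP0 among them, and EEF1A1, the elongation factor that brings aminoacyl-tRNA to the ribosome, at 2606, 2670.1 and 2579.5 FPKM. The 86 cytosolic ribosomal protein genes held 16.3%, 18.6% and 17.3% of all FPKM. Of these 83 were detected, their median CV was 8.30%, and none of the 83 lay more than 2-fold from both other libraries in replicate 1. All 78 mitochondrial ribosomal protein genes were detected, with 0.705%, 0.762% and 0.734% of all FPKM and a median CV of 12.9%. In replicate 1, 2 of them (2.56%) lay more than 2-fold above both other libraries, against 8.91% of all genes. Another 4 (5.13%) lay more than 2-fold below, against 11.4% of all genes, MRPL33 among these 4 at 67.1, 162 and 144 FPKM.

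**Figure D2:**
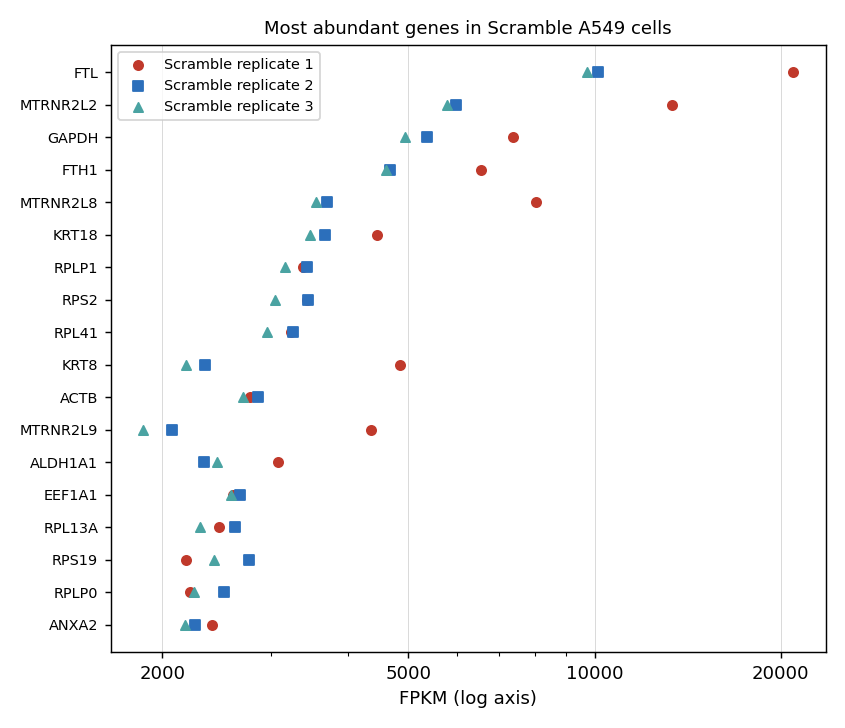
FPKM (horizontal axis, log scale) of 18 of the 20 genes with the highest mean over the 3 Scramble libraries, with 1 point for each library. Replicate 1 lies to the right for FTL, FTH1, GAPDH, KRT8 and the MTRNR2L genes, and less far for KRT18 and ALDH1A1. The points of the ribosomal protein genes, ACTB and EEF1A1 lie close together.

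Of the 20 genes, 3 were humanin-like MTRNR2L genes, which are nuclear sequences resembling mitochondrial ribosomal RNA. MTRNR2L2 was at 13346, 5979 and 5775 FPKM, MTRNR2L8 at 8056, 3693 and 3551 FPKM and MTRNR2L9 at 4348, 2077 and 1865 FPKM. No symbol of the mitochondrial chromosome itself was listed. In GENCODE transcripts MTRNR2L2 is 87 bases long, and 42.1% of its 50-base words occur in MTRNR2L1. Its 249934 counts at 13346 FPKM in replicate 1 imply that a longer sequence was quantified. The overlap of that sequence with other genes is not known, so these values are uncertain. Processed pseudogenes touch other leaders as well: 40.4% of the 50-base words of FTH1, 28.9% of those of KRT18 and 18.3% of those of FTL occur in transcripts of other genes, against 1.88% for KRT8 and 0 for ALDH1A1.

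The abundance was spread unevenly, with 10 genes holding 14.6%, 9.17% and 9.0% of all FPKM and 100 genes holding 38.7%, 33.5% and 32.2%. Replicate 1 was thus the most concentrated library. The 100 leading genes of each library shared 83 members over all 3 libraries, and 95 between replicates 2 and 3.

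Genes of simple epithelium ranged from KRT18 and KRT8, among the 20 most abundant of all, to 0. Of 25 such genes, 14 (56.0%) were detected, near the 59.6% of all listed genes, with a median level of 8.60 FPKM against 4.03 FPKM over all listed genes. KRT7, a keratin of glandular and lung epithelium, was at 821, 1934 and 1726 FPKM. CDH1 (E-cadherin), the adherens junction protein, was at 42.4, 17.3 and 17.3 FPKM, and its partner JUP (plakoglobin) was at 57.99, 34.3 and 35.5 FPKM. The junction scaffold TJP1 was at 33.95, 70.5 and 77.96 FPKM and the desmosomal DSP at 38.01, 16.8 and 20.2 FPKM. ELF3, an epithelial transcription factor, was at 100.2, 65.8 and 65.4 FPKM. These genes were present in all 3 libraries, with KRT7 and TJP1 lower and CDH1 and DSP higher in replicate 1 by about 2-fold.

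The other side of the list was silent or nearly so. KRT19, a keratin of most simple epithelia, was at 1.34, 0.44 and 0.21 FPKM (36, 13 and 6 counts), and KRT18 exceeded it 3325-fold, 8325-fold and 16516-fold. With so few KRT19 counts these ratios are imprecise, and their order between libraries is not read. The transcription factor GRHL2 and the vesicle protein RAB25 had 0 counts in all 3 libraries. ESRP1 and ESRP2, epithelial splicing factors, OVOL1 and the protease ST14 did not pass 0.16 FPKM. Among claudins, the strand proteins of tight junctions, 4 of 20 were detected, led by CLDN1 at 18.8, 231 and 244 FPKM and CLDN2 at 96.4, 9.12 and 8.75 FPKM. CLDN3, CLDN4 and CLDN7 did not pass 1.41 FPKM. The leading claudin therefore depended on the library, since CLDN2 led in replicate 1 and CLDN1 in the others.

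Of 22 mesenchymal and matrix genes, 11 (50%) were detected, against 59.6% of all listed genes. Their median was 1.72 FPKM, against 4.03 FPKM over all listed genes. VIM (vimentin), the intermediate filament of mesenchymal cells, was at 612, 506 and 482 FPKM, which was above CDH1 by 14.4-fold, 29.2-fold and 27.9-fold and below KRT8 in every library. FN1 (fibronectin) was at 175, 52.2 and 60.1 FPKM and TGFBI, a secreted adhesion protein, at 204, 227 and 214 FPKM. S100A4, a calcium-binding protein of motile cells, was at 356, 196 and 175 FPKM. CDH2 (N-cadherin) was at 7.92, 12.95 and 14.5 FPKM and the repressor ZEB1 at 3.81, 6.14 and 7.57 FPKM. The genes of type I and III collagen were not detected: COL1A2 had 0 counts in all libraries, and COL1A1, COL3A1 and SPARC did not pass 0.48 FPKM. The cells thus carried keratin and vimentin transcripts together without detected COL1A1, COL1A2 or COL3A1.

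**Figure D3:**
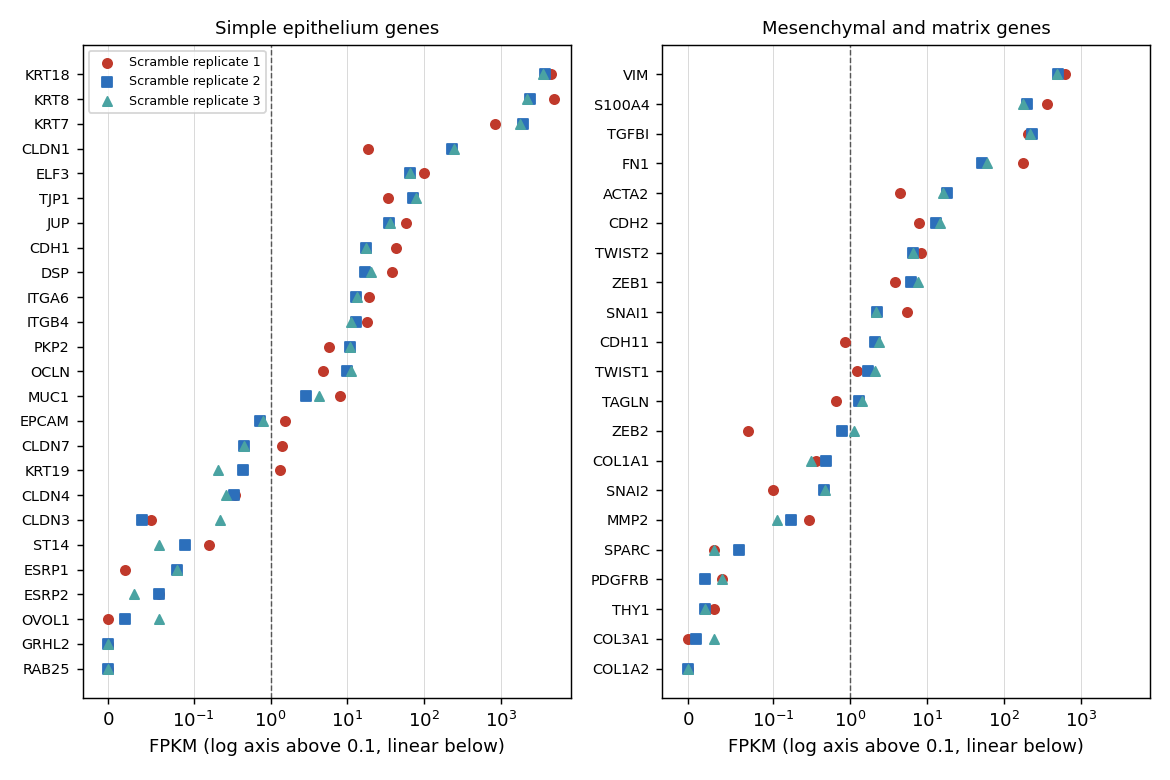
FPKM of 25 simple epithelium genes (left) and 21 of 22 mesenchymal and matrix genes (right), with 1 point for each library and a dashed line at 1 FPKM; the horizontal axes are logarithmic above 0.1 and linear below. Both panels run from the most abundant genes (KRT18, KRT8, VIM) to 0 (GRHL2, RAB25, COL1A2), and EPCAM lies on the dashed line.

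Alveolar identity was hardly seen. Only 3 of 13 genes of alveolar type 2 cells, the surfactant-secreting cells that A549 is often used to represent, were detected (23.1%), and their median was 0.287 FPKM. These were the lipid transporter ABCA3 at 5.27, 3.63 and 3.61 FPKM, the transcription factor ETV5 at 6.81, 11.1 and 11.4 FPKM and the lipid enzyme LPCAT1 at 20.6, 8 and 7.13 FPKM. The surfactant genes SFTPA1, SFTPA2, SFTPB, SFTPC and SFTPD did not pass 0.72 FPKM. NKX2-1, the lineage factor of the lung, was at 0.07, 0.23 and 0.26 FPKM. Of 6 listed type 1 cell genes, CAV1, which forms caveolae, was at 64.5, 168 and 162 FPKM and AGER was at 1.01, 1.17 and 1.04 FPKM, while AQP5 and PDPN did not pass 0.08 FPKM.

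Airway lineages were as sparse. AGR2, a disulfide isomerase of mucus cells, was at 539, 377 and 373 FPKM, and MUC5B, a gel-forming mucin, was at 32.1, 7 and 8.20 FPKM, but the club cell gene SCGB1A1 did not pass 0.12 FPKM. SPDEF, a goblet cell factor, was at 5.37, 0.08 and 0.13 FPKM. None of 8 genes of ciliated cells was detected, and of 8 genes of basal and squamous cells only SOX2 was, at 2.58, 2.30 and 2.40 FPKM, with TP63 at 0.34, 0.39 and 0.58 FPKM.

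Some transcription factors of gut and liver endoderm were present. Of 14 endoderm transcription factors, 10 (71.4%) were detected, against 59.6% of all listed genes. Their median was 5.72 FPKM, against 4.03 FPKM over all listed genes. FOXA2, a pioneer factor of endoderm, was at 27.1, 25.2 and 26.7 FPKM and varied little. HNF4A, the master regulator of hepatocytes, was at 35.9, 6.18 and 6.34 FPKM and its replicate 1 value was 5.73 times the mean of the others. CEBPB was at 107, 136 and 124 FPKM, whereas CDX2 and PDX1, factors of intestine and pancreas, did not pass 0.14 FPKM.

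Of 22 liver-type secreted proteins and enzymes, 12 (54.5%) were detected, near the 59.6% of all listed genes. The 3 chains of fibrinogen, the clotting protein, were all present, with FGA at 99.6, 161 and 169 FPKM, FGB at 57.5, 102 and 119 FPKM and FGG at 92.9, 84.2 and 93.2 FPKM. Complement C3 was at 31.2, 30.2 and 30.8 FPKM and vitronectin (VTN) at 26.5, 26.02 and 26.7 FPKM, and these were among the steadiest genes of the list. CPS1, which makes carbamoyl phosphate in liver mitochondria, was at 45.9, 78.4 and 90.8 FPKM. The defining hepatocyte genes ALB, AFP and TTR did not pass 0.67 FPKM.

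NRF2 targets were expressed at high levels. Of 38 NRF2 targets, 36 (94.7%) were detected, 17 reached 100 FPKM in every library, and the median was 142 FPKM against 4.03 FPKM over all listed genes. By library the median was 228, 79.1 and 79.7 FPKM, against 3.79, 3.67 and 3.74 FPKM over all listed genes. Together they held 9.46%, 4.94% and 5.04% of all FPKM, or 4.16%, 1.99% and 2.07% without the ferritin genes FTL and FTH1. Aldo-keto reductases were prominent: besides AKR1B10 and AKR1C1, AKR1C2 was at 1745, 716 and 697 FPKM and AKR1C3, a prostaglandin and androgen enzyme, at 2012, 1038 and 1019.6 FPKM. In GENCODE transcripts, 50.8% of the 50-base words of AKR1C2 occur in AKR1C1, so the split of reads between this pair is uncertain.

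The arms of the program were all filled. For glutathione, GCLC and GCLM, the subunits of glutamate-cysteine ligase, were at 92, 27.3 and 29 FPKM and 38.8, 4.52 and 4.67 FPKM, and SLC7A11, the cystine importer, was at 26.02, 10.2 and 10.5 FPKM. GSR, which regenerates glutathione, was at 192, 71.4 and 71.4 FPKM. For thioredoxin, TXN was at 798, 422 and 404 FPKM, its reductase TXNRD1 at 445, 204 and 214 FPKM, PRDX1 at 975, 396 and 385 FPKM and SRXN1, the sulfiredoxin, at 189, 29.3 and 29.1 FPKM. NADPH is made by the pentose phosphate enzymes and by ME1 and IDH1. Of these, PGD was at 793, 257 and 249.9 FPKM, TKT at 919, 569 and 545 FPKM and ME1 at 71.95, 42.6 and 48.4 FPKM. The lowest members were UGT1A6, a conjugating enzyme, at 2.49, 0.59 and 0.38 FPKM and CES1, a carboxylesterase, at 9.31, 1.34 and 0.92 FPKM, and 59.1% of the 50-base words of UGT1A6 occur in other genes.

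All 38 NRF2 targets were higher in replicate 1 than in both other libraries, and 27 (71.1%) were more than 2-fold higher, against 8.91% of all genes. GPX2, a glutathione peroxidase, was the extreme, at 463, 32.3 and 34.04 FPKM, and GCLM and CES1 followed by the ratio of replicate 1 to the others. The regulators ran differently. NFE2L2 itself was at 45.3, 116 and 123 FPKM, lowest in replicate 1, and KEAP1 was at 31.5, 12.8 and 13.1 FPKM, highest in replicate 1. The small MAF partner MAFF was at 2.37, 52.1 and 51.3 FPKM and MAFK at 35.6, 228 and 227 FPKM, while SQSTM1, which sequesters KEAP1, was at 647, 878 and 872 FPKM.

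NRF2 with a small MAF protein binds the antioxidant response element, whose core was searched as TGACNNNGC on both strands of RefSeq promoters (GRCh38.p14, 250 bases before to 50 bases after the start site). Promoters were matched for 14177 of the 18143 genes. The core was found in 8 of 27 NRF2 targets with a promoter (29.6%), in 15.2% of genes with a mean of at least 1 FPKM and in 14.6% of all. It was also found in 4 of 17 growth arrest and damage response genes (23.5%) and in 4 of 19 glycolysis genes (21.05%). In NRF2 regulators it was in 2 of 8, in simple epithelium genes in 2 of 13 (15.4%) and in lipid synthesis genes in 0 of 9. The groups are small, and their shares were not compared by a test. The 8 NRF2 targets were CBR1, CYP4F11, GCLM, GPX2, ME1, PGD, PIR and TXNRD1. A match each is shown for GPX2 and GCLM, with a wide split between libraries, and for ME1 and TXNRD1, with a narrower split, with the core in capitals and written along the strand of the gene. The windows lie at chr14:64942849-64942878 (minus strand) for GPX2, at chr1:93909446-93909475 (minus strand) for GCLM, at chr6:83431170-83431199 (minus strand) for ME1 and at chr12:104215669-104215698 (plus strand) for TXNRD1, and the cores start 122, 34, 137 and 99 bases before the start site. In GPX2 and GCLM the core is on the opposite strand and reads as its reverse complement.
GPX2: gacctgtttttGCTAAGTCAtcctggggat
GCLM: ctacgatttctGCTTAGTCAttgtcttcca
ME1: atctcctgccaTGACTCAGCgcttctcgca
TXNRD1: tacacgggctaTGACTTCGCtgttgtcacc
A match describes the letters in the promoter and not binding, and its part in the split between libraries was not tested.

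Glycolysis was strongly expressed. Of 20 genes, 19 (95.0%) were detected, at a median of 275 FPKM, and together they held 3.59%, 2.55% and 2.49% of all FPKM. By library the median was 312, 221 and 206 FPKM. After GAPDH came ALDOA, the aldolase, at 2029.8, 1149 and 1069 FPKM, ENO1, the enolase, at 1973, 1679 and 1593 FPKM and PKM, the pyruvate kinase, at 1967, 1145 and 1080.4 FPKM. The choice of isozymes was distinct. HK1, the housekeeping hexokinase, was at 32.5, 14.9 and 14.7 FPKM, while HK2, the form induced in many tumours, was at 0.49, 0.03 and 0.03 FPKM. The platelet phosphofructokinase PFKP was at 196, 349 and 316 FPKM, above the liver form PFKL in 3 of 3 libraries. LDHA exceeded LDHB 1.47-fold in replicate 1, but their ratios were 0.967 and 0.942 in the others, so their order was not stable. Among hexose transporters SLC2A3 exceeded SLC2A1 in 3 of 3 libraries, at 50.5, 41.4 and 38.7 FPKM against 39.2, 23.6 and 21.2 FPKM. Replicate 1 was above both other libraries for 18 of 19 genes with a mean of at least 1 FPKM (94.7%, against 43.4% of all genes), PFKP being the exception. It was more than 2-fold above for 3 (15.8%), against 8.91% of all genes.

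Serine and one-carbon enzymes were all detected (14 of 14), at a median of 48 FPKM, or 44.8, 30.8 and 29.5 FPKM by library. PHGDH, the entry enzyme of serine synthesis, was at 32.9, 68.7 and 66.7 FPKM, PSAT1 was at 89.96, 104 and 98.3 FPKM and the folate enzyme MTHFD1 was at 56.7, 56.2 and 55.6 FPKM. MAT2A, which makes S-adenosylmethionine, was at 136, 19.6 and 18.2 FPKM, higher in replicate 1. In nitrogen metabolism, glutamine synthetase (GLUL) was only at 0.57, 0.13 and 0.14 FPKM. Of the urea cycle, CPS1, ASS1 and ASL were detected, OTC had 0 counts in all libraries and ARG1 did not pass 0.04 FPKM, so the hepatic cycle was not complete.

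All 13 lipid synthesis genes were detected, at a median of 36.9 FPKM, or 58.2, 20.1 and 19.2 FPKM by library. SCD, the stearoyl-CoA desaturase, was at 460.4, 182 and 189.9 FPKM, ACLY, which supplies acetyl-CoA, at 185, 102 and 103 FPKM and FASN, the fatty acid synthase, at 88.97, 11.6 and 10.1 FPKM. The cholesterol enzymes HMGCS1 and SQLE were at 73.4, 68.9 and 70.9 FPKM and 75.6, 16.2 and 15.4 FPKM. Replicate 1 was above both other libraries for 13 of 13, against 43.4% of all genes. It was more than 2-fold above for 5 (38.5%), against 8.91% of all genes. SREBF2, the sterol regulator, varied little, at 37.7, 36.3 and 36.9 FPKM.

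The RAS-ERK pathway was expressed at moderate, even levels. All 14 genes were detected at a median of 28.4 FPKM, with a median CV of 10.7%. The small GTPases HRAS and NRAS were at 33.3, 29.4 and 26.6 FPKM and 21.6, 32 and 36.01 FPKM. The kinase ARAF was at 30.4, 37.4 and 36.7 FPKM, and MAP2K2 led the list at 98.6, 114 and 104 FPKM. BRAF was at 2.28, 9.19 and 9.99 FPKM and was the only member more than 2-fold lower in replicate 1.

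Output genes of the pathway were less even. Of 13, 12 were detected, at a median of 19.0 FPKM, or 6.81, 22.0 and 19.4 FPKM by library. In replicate 1, 12 were below both other libraries, 8 of them (61.5%) by more than 2-fold, against 11.4% of all genes. EGR1, an immediate early factor, was at 0.57, 40.1 and 40.7 FPKM, FOSL1, an AP-1 subunit, at 7.84, 131 and 117 FPKM, and the phosphatases DUSP4 and DUSP6 at 34.6, 73.2 and 72.6 FPKM and 2.34, 9.60 and 8.79 FPKM. CCND1, the G1 cyclin, was the exception, at 98.4, 57.1 and 56.4 FPKM. MYC was at 29.4, 48.5 and 42.7 FPKM, while MYCN did not pass 1.44 FPKM and MYCL did not pass 0.82 FPKM.

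Of 18 listed receptor tyrosine kinases 13 (72.2%) were detected, against 59.6% of all listed genes. MET, the receptor of hepatocyte growth factor, was at 38.04, 53.1 and 57.95 FPKM, FGFR1 at 56.5, 50.5 and 50.7 FPKM and FGFR4 at 55.4, 34.8 and 33.1 FPKM. EGFR was at 12.1, 47.8 and 58.2 FPKM, AXL at 31.8, 94.5 and 90.3 FPKM and EPHA2 at 16.3, 109.6 and 104 FPKM, all lowest in replicate 1, and ERBB3 was at 23.05, 4.55 and 5.81 FPKM, highest there. The kinases that are activated by fusion in other lung cancers were silent or low: ALK and RET did not pass 0.09 FPKM, and ROS1 was at 0.13, 1.48 and 1.64 FPKM.

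Of 20 tumour suppressors, 18 (90%) were detected, at a median of 10.1 FPKM. STK11, the kinase that activates AMPK, was at 16.7, 11.6 and 10.4 FPKM, and RB1 was at 9.31, 13.4 and 15.6 FPKM. SMARCA4, an ATPase of the SWI/SNF remodelling complex, was at 2.25, 6.51 and 6.83 FPKM and its paralogue SMARCA2 at 9.49, 5.01 and 5.28 FPKM, so that SMARCA4 was the lower in replicate 1 and the higher in the others. Transcript levels of STK11, KEAP1 and SMARCA4 were thus above 1 FPKM in all libraries, and the counts carry no information on their protein.

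The 2 that were not detected were CDKN2A, at 0.38, 0.24 and 0.53 FPKM (6, 5 and 8.95 counts), and CDKN2B, at 0, 0 and 0.03 FPKM. They encode inhibitors of the cyclin D kinases and are neighbours on chromosome 9, where CDKN2A spans 21967753 to 21995301 and CDKN2B 22002903 to 22009363 (GRCh38, GENCODE release 29). The neighbouring MTAP, a methionine salvage enzyme at 21802543 to 21937651, was at 0.95, 0.58 and 0.50 FPKM, with 86.6, 57.6 and 49.8 counts. Between MLLT3 and ELAVL2 the annotation has 26 protein-coding genes, of which 14 were listed and 3 were detected. These were MLLT3 at 8.92, 23.6 and 26.3 FPKM, FOCAD at 8.08, 9.72 and 9.83 FPKM and KLHL9 at 9.21, 8.46 and 9.58 FPKM, all on the telomeric side of CDKN2A. On the other side DMRTA1 was at 0.52, 1.82 and 2.14 FPKM. The annotated protein-coding genes between KLHL9 and MTAP are all interferons, mostly IFNA genes, which cells make upon infection. A low value there does not separate a lost gene from a silent gene.

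**Figure D4:**
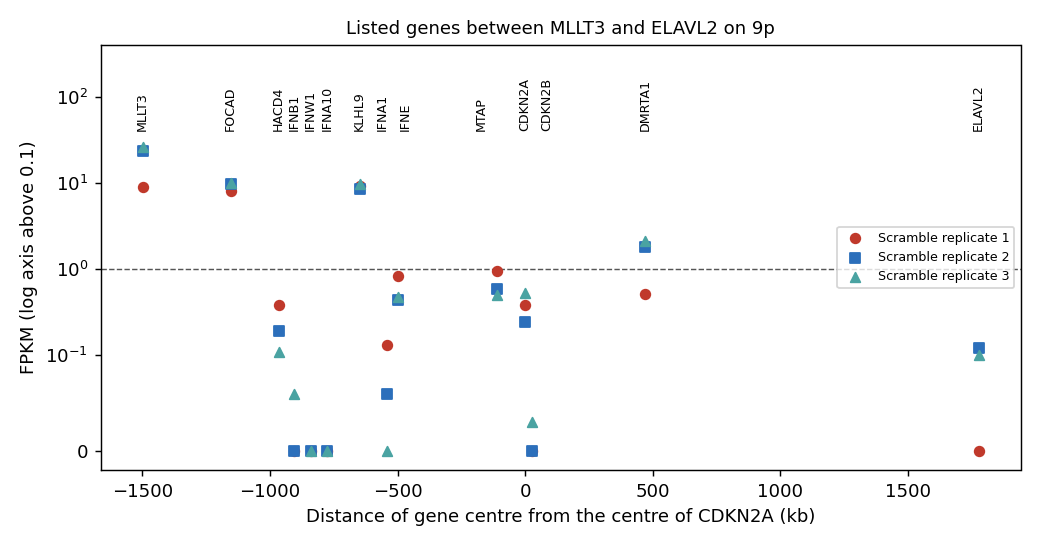
FPKM (vertical axis, logarithmic above 0.1 and linear below) of the 14 listed genes between MLLT3 and ELAVL2 against the distance of each gene's centre from that of CDKN2A (kb), with 1 point for each library; the dashed line marks 1 FPKM. MLLT3, FOCAD and KLHL9 lie above the line in all 3 libraries, and MTAP, CDKN2A and CDKN2B lie below it.

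Growth arrest and damage response genes were expressed. All 20 genes of this list were detected, at a median of 31.3 FPKM, or 11.3, 39.1 and 39.7 FPKM by library. CDKN1A, the p21 cell cycle inhibitor, was at 67.8, 356 and 342 FPKM, GDF15, a stress cytokine, at 42.8, 618 and 559 FPKM and BAX, a death effector, at 137, 208 and 186 FPKM. MDM2, a ubiquitin ligase, was at 15.02, 38.8 and 38.5 FPKM. Replicate 1 was below both other libraries for 19 of 20 genes and more than 2-fold below for 14 (70.0%), against 11.4% of all genes, and ZMAT3 was the exception at 3.59, 1.91 and 2.18 FPKM. The list held 0.0924%, 0.367% and 0.360% of all FPKM.

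Proliferation genes were expressed throughout (26 of 26, median 31.2 FPKM). MKI67, the proliferation antigen, was at 37.4, 26.9 and 31.8 FPKM, TOP2A at 81.98, 77.3 and 89.2 FPKM and CDK1, the mitotic kinase, at 57.6, 82.7 and 89.8 FPKM. The replication clamp PCNA was at 314, 153 and 151 FPKM and the helicase subunit MCM7 at 86.6, 34.5 and 31.05 FPKM. Replicate 1 was above both other libraries for 18 genes (69.2%) and below for 6 (23.1%), against 43.4% and 49.0% of all genes. It was more than 2-fold above for 8 (30.8%), against 8.91% of all genes. REV1, the target of the other groups, was at 7.23, 7.90 and 8.44 FPKM in these control cells, and its partners REV3L, MAD2L2 and RAD18 were at 2.05, 4.86 and 6.27 FPKM, 21.1, 24.7 and 23.6 FPKM and 5.56, 11.8 and 13.6 FPKM. SERTAD2, a transcriptional coregulator, was at 8.90, 25.4 and 29.2 FPKM and exceeded REV1 1.23-fold, 3.22-fold and 3.46-fold.

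**Figure D5:**
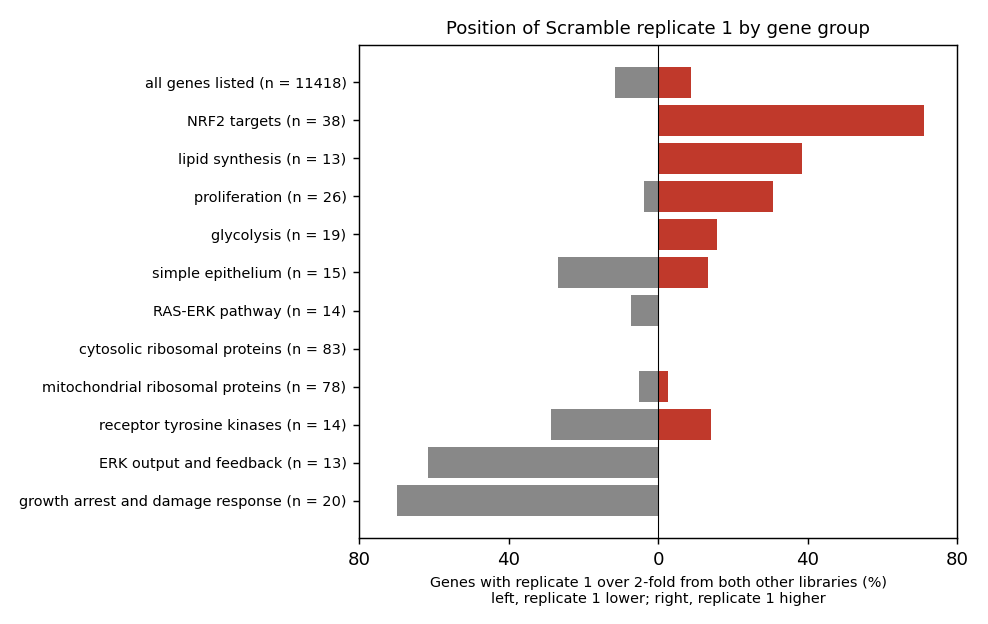
Share of genes (%, horizontal axis) in which replicate 1 lay more than 2-fold above (red, right) or below (grey, left) both other Scramble libraries, for all genes and for 11 groups, counting genes with a mean of at least 1 FPKM. NRF2 targets (71.1% above) and growth arrest and damage response genes (70.0% below) are at the extremes, all genes are at 8.91% above and 11.4% below, and cytosolic ribosomal proteins are at 0.

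Among 6190 genes with a mean of at least 10 FPKM, HSPA8, the constitutive HSC70 chaperone, had the highest CV at 155%, with 903, 35.3 and 30.9 FPKM, and replicate 1 was 27.3 times the mean of the others. The inducible HSP70 genes HSPA1A and HSPA1B followed at 147, 6.80 and 6.96 FPKM and 85.6, 5.29 and 4.45 FPKM. In GENCODE transcripts 72.6% of the 50-base words of HSPA1A occur in HSPA1B, so these values are not separate measurements. Other members of the 10 were SLC6A6, a taurine transporter, at 36.3, 2.17 and 2.44 FPKM, the receptor NOTCH3 at 27.8, 2.06 and 1.98 FPKM and the oxygen-sensing hydroxylase EGLN3 at 30.3, 2.30 and 2.34 FPKM, besides TMEM37, GPX2, CLDN2 and GCLM. All 10 were highest in replicate 1, and in each the other libraries were close to each other. The same split by replicate number was seen for HSPA8 in SiREV1#1 (915, 25.0 and 25.7 FPKM) and SiREV1#2 (826, 26.8 and 27.3 FPKM). In these groups GPX2 was at 1036, 93.5 and 100.7 FPKM and 455, 23.6 and 22.7 FPKM, again highest in replicate 1. GDF15 was at 20.8, 262 and 238 FPKM and 38.7, 374 and 404 FPKM, lowest in replicate 1 as in Scramble. CLDN1 was at 25.2, 165 and 167 FPKM and 22.7, 369 and 363 FPKM, also lowest there. MTAP did not follow in SiREV1#1, at 0.46, 0.58 and 0.57 FPKM.

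The promoter of HSPA8 holds the heat shock element searched as GAANNTTCNNGAA on both strands at 2 places, a motif found in 49 of the 14177 promoters (0.346%). They are shown with the element in capitals because HSPA8 was the most variable gene. No match was listed for HSPA1A, HSPA1B or DNAJB1, which may have had no matched promoter. The part of the element in the split between libraries was not tested. The upstream match is within chr11:123062346-123062375 and the proximal match, on the opposite strand, within chr11:123062171-123062200 (GRCh38.p14, minus strand), and the elements start 230 and 55 bases before the start site.
HSPA8 upstream: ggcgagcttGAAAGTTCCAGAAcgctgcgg
HSPA8 proximal: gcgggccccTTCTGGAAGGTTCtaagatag

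At the other end, PMPCB, a subunit of the mitochondrial processing peptidase, was at 36.5, 36.4 and 36.5 FPKM with a CV of 0.0726%. With 1587, 1698 and 1717 counts, counting error alone is larger than this CV. A place among the 10 lowest CVs of 6190 genes with 3 values each therefore does not show that a gene is exceptionally stable. TIMP2, a metalloproteinase inhibitor, was at 17.8, 17.8 and 17.7 FPKM and DLST, a subunit of the oxoglutarate dehydrogenase complex, at 58.6, 58.98 and 58.6 FPKM. PI4KB, ANP32A, PDCL3, SND1, STARD3NL and ARPC5 completed the set with DNAJB1, an HSP70 co-chaperone, which was at 73.03, 73.9 and 73.8 FPKM while HSPA1A and HSPA8 varied. Of 12 genes in common use as loading controls, all were detected and their median CV was 10.0%. ACTB and SDHA varied little, at 2771, 2855 and 2701 FPKM and 76.7, 79.7 and 77.6 FPKM. PPIA was near the median of these controls, at 1686, 1494 and 1369 FPKM with a CV of 10.5%. GAPDH and TUBA1B were higher in replicate 1, with TUBA1B at 1054, 569.6 and 516 FPKM.

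Markers of other cells were at or near 0, apart from a few. The defining genes of endothelium (0 of 8 detected, summed level 0.24 to 0.30 FPKM) and of erythroid cells (0 of 4 listed, summed level 0.17 to 0.20 FPKM) were not detected. Of 8 listed immune genes only CD68, a lysosomal protein, was detected, at 39.5, 18.3 and 18.3 FPKM, with PTPRC (CD45) at 0.20, 0.20 and 0.22 FPKM, and the summed level of the list was 47.3, 21.8 and 22.0 FPKM. The fibroblast and muscle list (1 of 10 detected, summed level 5.31, 19.3 and 17.0 FPKM) was carried by ACTA2, smooth muscle actin, at 4.45, 18 and 15.9 FPKM, with DCN and PDGFRB at 0.04 FPKM or less. Of 9 listed neuroendocrine and neuronal genes 4 were detected (summed level 25.5, 46.9 and 49.3 FPKM). SNAP25, a vesicle fusion protein, was at 9.43, 34.1 and 36.2 FPKM and SYP at 4.34, 7.01 and 6.18 FPKM, while NEUROD1 and NCAM1 did not pass 0.08 FPKM.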

How the data were processed

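RNA from A549 cells was harvested 48 h after siRNA transfection, enriched for mRNA with oligo(dT) beads and sequenced on a BGI platform. For each library the authors deposited FPKM values with 2 decimals and estimated read counts (expected counts, of which 42.7% to 43.6% are not whole numbers) for 18143 genes. The submitters' processing notes name hg38 and StringTie 1.3.3b without a role, and the aligner, the counter, the annotation and strand handling are not given in the sources used here. The extraction text in the labels speaks of tissue, whereas the samples are labelled as cells. FPKM depends on the transcript length and on the total of each library, so a few very abundant genes lower all others, and paralogues and pseudogenes can share reads.

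The 3 Scramble libraries were taken by label (18382314 to 20035170 counts), and of the other 6 only FPKM values of a few genes were read, with 1 count column left out because it repeats that of another library. Genes were ranked by mean FPKM, spread was given as the CV of FPKM with the SD over 3 libraries, and the biological CV was estimated with edgeR 4.0.16 (R 4.3.3) on rounded counts with TMM scaling and no covariate. No test was run, since there is 1 group, and no p-value is given. Tables were handled in pandas 2.3.3 under Python 3.11.15 and plotted with matplotlib 3.10.9, and the spread measures were tested on simulated data. Named genes were members of the gene lists, the 20 highest by mean FPKM, the 10 highest and 10 lowest by CV at a mean of at least 10 FPKM, the 3 highest of each gene family and the genes between MLLT3 and ELAVL2. The markers, lists and rule were chosen with earlier results of these data known. Positions of genes come from GENCODE release 29 (GRCh38), and promoters from RefSeq (GRCh38.p14), matched by gene identifier. Shared sequence was counted as 50-base words of the longest transcript found in transcripts of other genes. The alternatives were other thresholds, TPM, CPM, shares of counts, other pseudocounts and leaving out each library. Some genes of these lists are counted in the list values but are not reported here by name.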

Additional observations from a re-analysis of the deposited data

How the results depend on the processing

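Replicate 1 decided the spread: the median CV was 21.1% over the 3 libraries and ran from 5.19% to 25.5% when a library was left out, with the low value without replicate 1, and it was between 18.5% and 29.2% under the other filters, scales and pseudocounts. The number of genes at 1 FPKM or more in every library, 10818, ran from 10880 to 11131 with a library left out, and was 5193 at a threshold of 10 FPKM and 13687 at 0.1 FPKM. Genes with 0 counts in every library numbered 685, and 2267 had fewer than 3 counts in each; the number ran from 964 to 1123 with a library left out (1123 without replicate 1), since fewer libraries then have to be at 0. The 100 leading genes held 34.8% ± 3.47 (SD, n = 3) of FPKM but 19.5% of expected counts, which are not divided by length. NRF2 targets held 6.48% ± 2.58 (SD, n = 3) of FPKM, 2.74% without FTL and FTH1, and from 4.99% (without replicate 1) to 7.25% with a library left out. Of 484 listed genes in 36 lists, 332 were detected, and 333 to 341 with a library left out. Thresholds mattered more: 227 listed genes reached 10 FPKM and 388 reached 0.1 FPKM in every library, and the counts of 14 and 7 of the 36 lists moved by over 1.5 times, against 1 list without replicate 1 and 0 without replicate 2 or 3. The count of alveolar type 2 genes went from 3 to 0 at 10 FPKM and to 6 at 0.1 FPKM, and at 0.1 FPKM that of ciliated genes from 0 to 4 and that of 9p21 genes from 3 to 8. No paired analysis was possible because the results come from 1 group and no test. Depth limits genes below about 1 FPKM, where the median CV was 63.0%, and 3 libraries cannot say which of replicate 1 or the others is typical of the line; the cause of the difference was not tested.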

Other observations

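Cancer-germline antigens, which are normally restricted to testis, were expressed from a few loci: 4 of 12 listed genes were at 1 FPKM or more in all 3 Scramble libraries. PRAME was at 43.6, 36.1 and 35.01 FPKM, XAGE1B at 45.3, 53.5 and 43.6 FPKM, MAGEA6 at 32.4, 42.8 and 41.3 FPKM and MAGEA3 at 4.30, 3.86 and 4.30 FPKM, and none of them lay more than 2-fold from both other libraries in replicate 1. The MAGEA6 value exceeded that of MAGEA3 by 7.54-fold, 11.1-fold and 9.61-fold, but 54.5% of their 50-base words are shared, and XAGE1B shares 100% of its words with XAGE1A, so the split of reads is uncertain. MAGEA4, MAGEB2 and DDX4 did not pass 0.02 FPKM. Of the HOX genes, which set position along the body axis, 17 of 36 were detected, with HOXB7 at 14.6, 23.3 and 20.3 FPKM and HOXA3 at 7.52, 8.83 and 9.10 FPKM.

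Host factors that respiratory viruses use were unevenly present. TMPRSS2, the protease that primes coronavirus spikes, had 0 counts, while the proteases CTSL and FURIN were at 61, 40.6 and 40.98 FPKM and 16.4, 16.2 and 16.5 FPKM and NRP1 was at 52.6, 38.9 and 41.8 FPKM. Antigen presentation was on at the class I level, with B2M at 243, 279 and 278 FPKM and the peptide transporter TAP1 at 8.62, 26.2 and 24.05 FPKM, whereas CD74, the class II chaperone, and PDCD1LG2 were listed at 0 in all 3 libraries and CD274 (PD-L1) was at 0.50, 0.49 and 0.56 FPKM. Among drug-metabolizing enzymes, CYP24A1, which breaks down vitamin D, was the highest of 53 listed cytochrome P450 genes at 270.3, 246 and 224 FPKM, of which 12 were detected, and CYP3A4 did not pass 0.11 FPKM. GSTP1 was at 959, 836 and 775 FPKM, GSTT1 did not pass 0.15 FPKM, and CYP1A1, a target of the aryl hydrocarbon receptor, was at 0.36, 9.94 and 12.4 FPKM. Of 77 listed olfactory receptor genes, 2 were detected (OR7E24 and OR1F1).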
